A study of Mus musculus with 15 samples.

Results

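The 8 genes described here encode cytochrome c (Cycs), the apoptosome scaffold Apaf1, the initiator caspase Casp9, the executioner caspase Casp6, the caspase inhibitor Xiap, its mitochondrial antagonists Diablo and Htra2, and the mitochondrial flavoprotein Aifm1. They were taken as a list by gene symbol from 13940 annotated genes that had a transcript in the file of every mouse, and the list was chosen by function with the gene-level FPKM differences among these mice known, so those differences between groups are given as a description with no p value. All 8 genes passed the filter on low values, which kept 12372 genes with at least 1 FPKM (fragments per kilobase of transcript, scaled to the depth of the library) in at least 5 mice. Apaf1 passed narrowly, with 6 of 15 mice at 1 FPKM or above (2 Control, 0 Ang II and 4 Ang II + QDG mice). Casp6 is the single executioner caspase among the 8 genes.

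RNA was measured in whole kidney of 15 male C57BL/6 mice of wild-type (WT) genotype that were 8 weeks old when bought. The 5 Control mice received saline, and the 5 Ang II mice received angiotensin II, a peptide that raises blood pressure, at 500 ng/kg/min, in both groups from an osmotic pump under the skin for 28 days. The 5 Ang II + QDG mice, also called QDG-treated mice, received the same Ang II infusion and, by gavage, 1.145 g/kg/day of Qingda granule (QDG), a formula of Chinese herbal medicine, while the other groups were given water by gavage. The Ang II mice are thus shared by the comparison with Control, which concerns the effect of Ang II infusion, and the comparison with Ang II + QDG, which concerns the effect of QDG during infusion.

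Cytochrome c carries electrons between complexes III and IV of the mitochondrial respiratory chain. When the outer mitochondrial membrane is opened, it enters the cytosol and binds Apaf1, which assembles into the apoptosome and recruits and activates caspase-9. Caspase-9 starts a cascade of cleavage that activates the executioner caspases, Xiap blocks caspase-9 among other caspases, and Diablo and Htra2, which leave mitochondria together with cytochrome c, displace Xiap. These steps take place in existing proteins by release, assembly and cleavage, none of which RNA levels measure. Kidney tubules are rich in mitochondria, so cytochrome c has a respiratory role in this tissue beside its role in cell death.

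The coding stretches that carry these functions are shown from the GENCODE M21 transcripts on GRCm38, written from 5′ to 3′ along the transcript. For Cycs the first 300 of the 315 coding bases are shown, because copies of it elsewhere in the genome bear on its measurement. The capitals mark the 5 codons of the heme attachment motif (bases 43 to 57), which a search of the reading frame for a pair of cysteine codons set 2 codons apart and followed by a histidine codon found 1 time. For Casp9 and Casp6 the capitals mark 5 codons around the catalytic cysteine, and for Diablo the 4 codons of the motif by which the mature protein binds inhibitors of apoptosis.

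Cycs: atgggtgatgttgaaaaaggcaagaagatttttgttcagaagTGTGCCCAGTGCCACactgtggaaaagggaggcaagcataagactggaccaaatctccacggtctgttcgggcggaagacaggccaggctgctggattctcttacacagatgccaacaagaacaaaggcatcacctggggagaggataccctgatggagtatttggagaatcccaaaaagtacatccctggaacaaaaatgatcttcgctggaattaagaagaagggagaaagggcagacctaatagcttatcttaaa
Casp9: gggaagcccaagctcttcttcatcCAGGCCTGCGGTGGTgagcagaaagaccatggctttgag
Casp6: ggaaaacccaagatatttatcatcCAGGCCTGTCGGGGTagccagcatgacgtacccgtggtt
Diablo: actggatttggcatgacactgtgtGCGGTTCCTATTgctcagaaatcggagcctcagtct

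The libraries implied 68922840 to 81329480 fragments per mouse, and the median correlation of a mouse with the others was 0.825 to 0.840. Proximal tubule markers summed to between 4998 and 6041 FPKM in the 15 mice, as kidney should show, and adrenal cortex markers were nearly absent, with 4 of 5 not listed in every file. Adipocyte markers (4 of 5 listed in every file, not Lep) summed to 79.0 FPKM in Ang II replicate 1 and 45.1 FPKM in Control replicate 2, against at most 1.38 FPKM and 16.2 FPKM in the other mice of these groups, and to 2.54 to 16.9 FPKM in QDG-treated mice. In Ang II vs. Control, 612 genes were called higher and 123 lower. In Ang II + QDG vs. Ang II there were 65 higher and 159 lower. A gene was called at a Benjamini-Hochberg adjusted p under 0.05 in limma over the 12372 genes. The median log2 difference of all genes was 0.08 and −0.02 in the same comparisons. When the medians of the mice were set equal, the split in Ang II vs. Control became 200 higher and 270 lower, and with quantile normalization it became 227 and 268. The split in Ang II + QDG vs. Ang II was 72 and 112 with equal medians and 97 and 97 with quantile normalization.

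Among the 8 genes, Cycs was the one whose level in Ang II mice stood clear of both other groups. The gene lies on chromosome 6 (50562563 to 50566538, minus strand, GRCm38) and has 3 exons in its coding transcript. In Control mice it was at 116.5, 107.5, 119.8, 127.6 and 92.7 FPKM. In Ang II mice it was at 144.0, 152.2, 161.9, 145.2 and 144.8 FPKM, and in Ang II + QDG mice at 118.7, 99.5, 95.2, 101.5 and 108.6 FPKM. Every Ang II mouse lay above every mouse of the other groups, with a gap from 127.6 to 144.0 FPKM, and the Control and Ang II + QDG mice overlapped. The group means were 112.8 ± 13.4 FPKM for Control, 149.6 ± 7.58 FPKM for Ang II and 104.7 ± 9.19 FPKM for Ang II + QDG mice (SD, n = 5 each). On the log2(FPKM + 1) scale the difference was 0.41 (SE 0.08), or 1.33-fold, in Ang II vs. Control. It was −0.51 (SE 0.08), or 0.700-fold, in Ang II + QDG vs. Ang II and −0.10 (SE 0.08) in Ang II + QDG vs. Control. In bulk tissue, a change in the share of cells that hold a transcript and a change in the transcript per cell cannot be told apart.

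**Figure D1:**
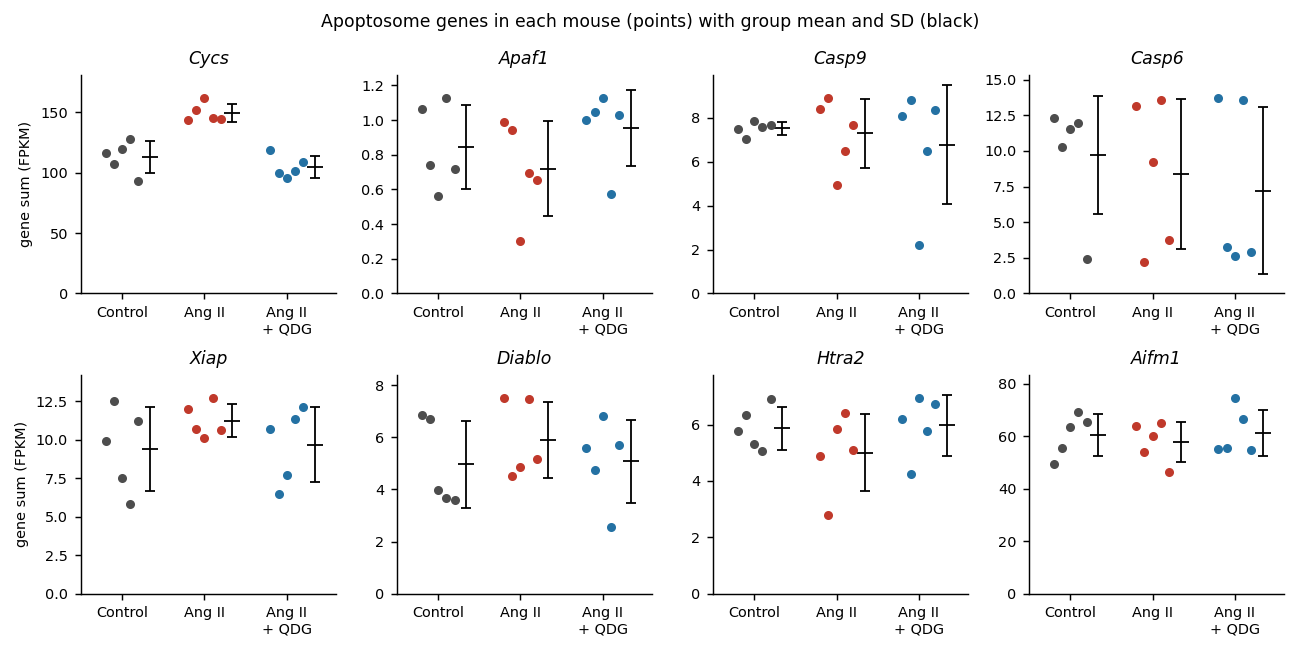
Gene sums in FPKM (vertical axes, linear from 0) of the 8 genes in each of the 15 mice, with the group mean and SD in black beside the points. The Ang II points of Cycs lie at 144.0 to 161.9 FPKM, above all other points, while in the other 7 panels the groups overlap and the Casp6 points fall into a lower and an upper band.

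By the adjusted p, Cycs alone was called among the 8 genes, higher in Ang II vs. Control (1 of 8 members, where 5.94% of all genes were called and 4.95% were called higher). It was called lower in Ang II + QDG vs. Ang II (1 of 8, where 1.81% were called and 1.29% were called lower). None of the 8 was called in Ang II + QDG vs. Control, where 0.129% of all genes were. With the medians of the mice set equal, the Cycs difference in Ang II vs. Control was 0.32 and no member was called there. These contrasts chose the members, so nothing is read from the counts. Groups did not overlap for Cycs alone in the first comparison (7.91% of all genes) and in the second (5% of all genes), and for no member in the third (3.64% of all genes).

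**Figure D2:**
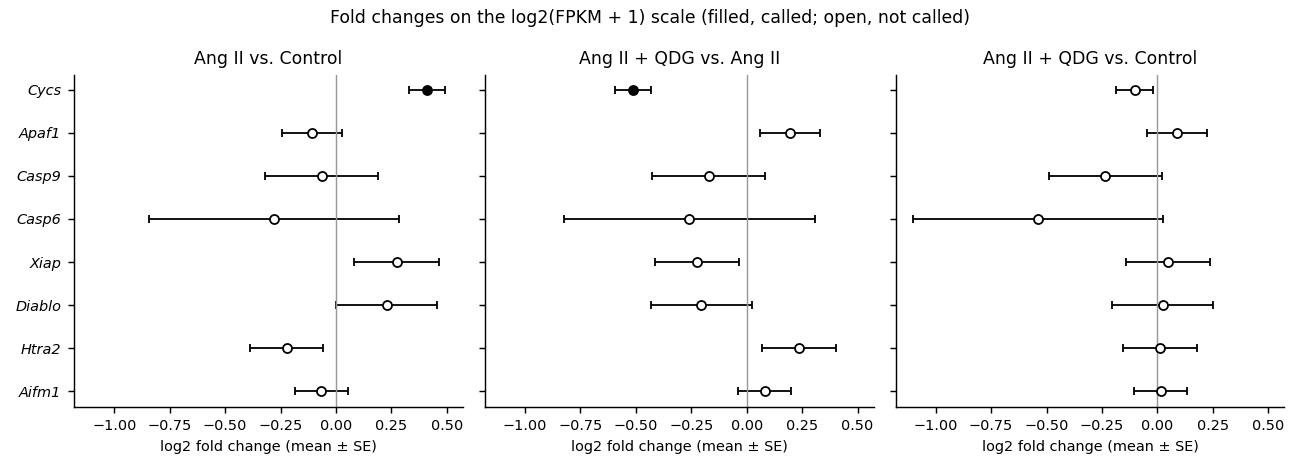
Difference between group means on the log2(FPKM + 1) scale (horizontal axes) for the 8 genes in 3 comparisons, with bars of 1 SE. The Cycs points sit at 0.41 and −0.51 with short bars and are the filled (called) ones, and the bars of Casp6 are the widest of the 8 genes, with an SE of 0.56.

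Some other measures also separated Ang II mice from Control mice, and others overlapped between these groups. Transcripts of the mitochondrial genome made up 15.4% to 16.02% of the annotated signal in Ang II mice, 18.5% to 20.7% in Control mice and 16.9% to 19.8% in Ang II + QDG mice. With FPKM rescaled to nuclear transcripts, the Cycs difference was 0.40 and −0.51 in the first and second comparison. Podocyte markers (3 of 4 listed in every file, not Synpo) summed to 101.4 to 127.2 FPKM in Ang II mice, 75.1 to 83.4 FPKM in Control mice and 98.0 to 124.8 FPKM in Ang II + QDG mice, so the QDG-treated mice lay above the Control range in this sum, while their Cycs levels lay within it. Erythroid markers (5 of 5) summed to 545 to 1362 FPKM in Control mice, 1115 to 1943 in Ang II and 1557 to 2818 in QDG-treated mice. Ang II and Control mice overlapped in the erythroid sum, while every QDG-treated mouse lay above every Control mouse. Markers of fibroblasts and pericytes (4 of 4) overlapped in sum, at 15.7 to 26.2, 14.6 to 36.9 and 20.1 to 33.8 FPKM. Of these, Pdgfrb was called higher in Ang II than in Control mice (1.13 on the log2 scale, adjusted p = 0.0468 in limma), and Col1a1 (0.64), Col3a1 (0.39) and Dcn (−0.49) were not called. Pdgfrb was near the floor, at 0 to 1.34 FPKM in Control and 2.12 to 2.72 FPKM in Ang II mice. Its call was kept in 4 of 15 fits that left out 1 mouse and in 4 of 10 alternatives that kept every mouse, with an adjusted p of up to 0.108. The Pdgfrb difference was 1.04 to 2.52 over these alternatives. Leukocyte markers (5 of 8) also overlapped in sum, at 13.9 to 26.0, 9.004 to 20.5 and 17.3 to 65.8 FPKM. Of these, 4 were tested, and these 4 had a lower mean in Ang II than in Control mice without being called. Only Adgre1 among them had no overlap (Control 1.56 ± 0.355, Ang II 0.951 ± 0.190 FPKM). Csf1r, the marker of the sum that did not pass the filter, went the other way. Its mean was 0.566 ± 0.919 FPKM with Ang II, against 0.036 ± 0.019 with saline, and these groups overlapped. Without Ang II replicate 1, the Ang II mouse with high adipocyte markers, the Cycs difference was 0.42 in the first comparison and −0.53 in the second, and without Control replicate 2 it was 0.40 in the first. The part of the other measures in the Cycs difference was not tested.

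The Cycs sum rested on its coding transcript Cycs-202 (ENSMUST00000161401), which held 98.1% to 98.9% of it in the group means. The coding transcript was at 91.4 to 126.7 FPKM in Control mice, 141.5 to 157.8 in Ang II and 94.2 to 115.8 in QDG-treated mice, with no overlap between Ang II and either other group. The short transcript Cycs-201 (ENSMUST00000077766), which keeps an intron, was at 0.93 to 1.48 FPKM in Control mice, 2.22 to 4.04 in Ang II mice and 0.89 to 2.84 in Ang II + QDG mice. Both transcripts were thus higher in every Ang II mouse than in every Control mouse, and Cycs-201 overlapped between Ang II and Ang II + QDG mice. Among all transcripts tested, 5.85% had groups that did not overlap in the first comparison and 3.61% in the second. Over all transcripts tested, 1.64% were called in the first comparison, 0.391% in the second and 0.0143% in the third.

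The level of Cycs is uncertain because near-identical copies of its coding sequence were listed with values of their own. A search of the 315 coding bases against all annotated transcripts found 19 transcripts of 18 other genes with at least 85% identity over at least 50% of the sequence, 17 of them pseudogene transcripts. Of these, 3 were listed in every file. Gm10053 on chromosome 19 (24875686 to 24876631), a gene of 1 exon annotated as protein coding, had all 315 coding bases of Cycs in common. Its whole transcript of 946 bases was 99.9% identical to bases 65 to 1010 of Cycs-202, and 2113 bases of Cycs-202 lay after that alignment. The processed pseudogene Gm10108 on chromosome 5 (13121448 to 13121766) differed at 2 coding bases, G4A and G44A, where the Cycs base stands first and positions count from 1 at the first coding base. Position 44 falls within the capitals of the Cycs sequence. The processed pseudogene Gm13772 on chromosome 2 (90804260 to 90804576) differed at C115T and G116A.

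The copies had levels below Cycs in every mouse. Gm10053 was at 67.5, 60.1, 69.8, 71.9 and 50.6 FPKM in Control mice, at 80.9, 86.5, 95.7, 78.3 and 81.5 FPKM in Ang II mice and at 68.0, 50.8, 54.6, 57.3 and 60.6 FPKM in Ang II + QDG mice. As for Cycs, every Ang II mouse lay above all others, and the log2 differences were 0.40 (SE 0.10) and −0.53 (SE 0.10). Gm10108 overlapped between groups, with means of 33.3 ± 6.10, 42.2 ± 5.69 and 31.4 ± 5.42 FPKM (SD, n = 5 each). Gm13772 was at 0.92 to 1.32, 1.48 to 1.78 and 0.58 to 1.21 FPKM. Reads from the shared bases cannot be assigned to 1 locus by sequence, so how far the values of the copies are reads of Cycs was not tested. With the 3 copies added to Cycs, an alternative chosen after seeing the data, the difference was 0.40 in the first comparison and −0.51 in the second.

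**Figure D3:**
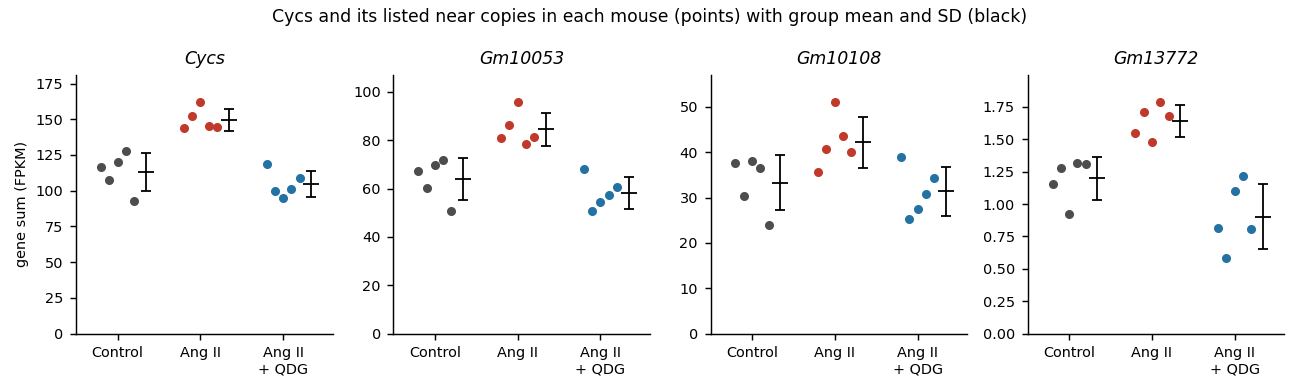
Gene sums in FPKM (vertical axes, linear from 0) of Cycs and its 3 listed near copies in each mouse, with group mean and SD in black. Gm10053 repeats the order of the groups seen for Cycs at 51.1% to 59.1% of its level, and Gm10108 overlaps between groups.

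The genes whose pattern over the 15 mice was most like Cycs were named by Pearson correlation of log2(FPKM + 1) among the genes tested, as a description that shares the libraries and the group differences. Gm10053 came first (r = 0.986), followed by Dnajb11 (r = 0.950), a chaperone cofactor of the endoplasmic reticulum, and Ran (r = 0.939), a GTPase of nuclear transport. The next were 2510002D24Rik (r = 0.936) and Nme1 (r = 0.934), a nucleoside diphosphate kinase. Dnajb11 had means of 40.9 ± 3.71 FPKM in Control mice, 49.8 ± 2.07 in Ang II and 37.4 ± 2.57 in QDG-treated mice (SD, n = 5 each). Ran had 45.3 ± 3.57, 53.2 ± 1.73 and 42.2 ± 2.21 FPKM in the same order.

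The other 7 genes spanned a wide range of levels, and none of them was called in any comparison. Averaged over 15 mice, the order was Cycs (122.4 FPKM), Aifm1 (60.0), Xiap (10.1), Casp6 (8.44), Casp9 (7.20), Htra2 (5.62), Diablo (5.31) and Apaf1 (0.838). The lowest Cycs mouse (92.7 FPKM) lay above the highest Aifm1 mouse (74.5), the lowest Aifm1 mouse (46.5) above the highest Xiap mouse (12.7), and the lowest Diablo mouse (2.55) above the highest Apaf1 mouse (1.13). Neighbours from Xiap down to Diablo overlapped, so their order does not exceed the spread between mice. FPKM is scaled by transcript length, which is what allows levels of different genes to be set side by side.

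Apaf1, the scaffold that cytochrome c binds, was the lowest of the 8 genes. It was at 1.06, 0.743, 0.559, 1.13 and 0.719 FPKM in Control mice, at 0.990, 0.943, 0.304, 0.697 and 0.656 FPKM in Ang II mice and at 1.00, 1.05, 1.13, 0.572 and 1.03 FPKM in Ang II + QDG mice. The 3 groups overlapped, and the log2 differences were −0.11 and 0.19 (SE 0.13) in the first and second comparison. These levels rest on 158 to 603 implied fragments per mouse, against 20310 to 39192 for Cycs, and a pseudocount of 1 FPKM makes differences at this level smaller. With a pseudocount of 0.1 FPKM the second difference was 0.42, and the gene was not called. Apaf1 lies on chromosome 10 (90989311 to 91082770, minus strand), and 1 of its 8 annotated transcripts was listed.

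Casp9, the initiator caspase of the apoptosome (chromosome 4, 141793612 to 141815976, plus strand), was even among Control mice and uneven in both Ang II-infused groups. Control mice were at 7.51, 7.05, 7.87, 7.59 and 7.66 FPKM. Ang II mice were at 8.42, 8.91, 4.96, 6.48 and 7.70 FPKM, and Ang II + QDG mice at 8.11, 8.81, 2.19, 6.48 and 8.35 FPKM. The SD was 0.302 FPKM in Control mice, 1.60 in Ang II and 2.72 in QDG-treated mice, around means of 7.53, 7.29 and 6.79. The log2 differences of −0.06 and −0.17 (SE 0.26) lay within this spread, and the wide SD of the Ang II + QDG group came with 1 mouse at 2.19 FPKM.

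Casp6, which cleaves lamins among other proteins (chromosome 3, 129901425 to 129914103, plus strand), fell into separate bands of mice that cut across the groups. Control mice were at 12.3, 10.3, 11.6, 12.0 and 2.43 FPKM. Ang II mice were at 13.2, 2.18, 9.19, 13.6 and 3.76 FPKM, and Ang II + QDG mice at 13.7, 3.27, 2.64, 13.6 and 2.92 FPKM. No mouse lay between 3.76 and 9.19 FPKM, and the 6 mice below this gap were 1 Control, 2 Ang II and 3 Ang II + QDG mice. The means of 9.72 ± 4.15, 8.38 ± 5.26 and 7.22 ± 5.86 FPKM (SD, n = 5 each) combine mice of both bands. The log2 differences were −0.28 and −0.26, with an SE of 0.56. A single transcript (ENSMUST00000029626) made up the sum in every mouse, and the assembled transcripts that the authors numbered without gene names, 9.57% to 11.9% of the signal per mouse, were not in it. Whether reads of Casp6 were counted under an assembled transcript in the lower band was not tested.

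Xiap, which binds and blocks caspases (chromosome X, 42059679 to 42109656, plus strand), had an SD of 1.07 FPKM in Ang II mice, against 2.71 in Control and 2.44 in QDG-treated mice. Control mice were at 9.89, 12.5, 7.50, 5.84 and 11.2 FPKM. Ang II mice were at 12.0, 10.7, 10.1, 12.7 and 10.7 FPKM, and Ang II + QDG mice at 10.7, 6.49, 7.70, 11.3 and 12.1 FPKM. The groups overlapped, with the highest Control mouse at 12.5 FPKM and the highest Ang II mouse at 12.7 FPKM. The difference was 0.27 in the first comparison and −0.23 in the second (SE 0.19 each). Taken from its most abundant transcript alone, Xiap-204, these differences were −0.17 and 0.10, of the opposite sign to the sum.

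Diablo and Htra2, which free caspases from Xiap, were at similar levels and overlapped in all comparisons. Diablo (chromosome 5, 123509765 to 123524176, minus strand) was at 6.86, 6.70, 3.99, 3.68 and 3.58 FPKM in Control mice, at 7.50, 4.502, 4.86, 7.47 and 5.15 FPKM in Ang II mice and at 5.59, 4.73, 6.80, 2.55 and 5.70 FPKM in Ang II + QDG mice. Its log2 differences were 0.23 and −0.20, each with an SE of 0.23. Htra2 (chromosome 6, 83051266 to 83055273, minus strand), a serine protease of the intermembrane space, was at 5.78, 6.34, 5.30, 5.05 and 6.91 FPKM in Control mice, at 4.90, 2.80, 5.83, 6.43 and 5.08 FPKM in Ang II mice and at 6.20, 4.24, 6.94, 5.76 and 6.74 FPKM in Ang II + QDG mice. Its differences were −0.22 and 0.24 (SE 0.17), so the mean of the Ang II group was the highest for Diablo and the lowest for Htra2, each within the spread between mice.

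Aifm1, a flavoprotein of the intermembrane space that maintains the respiratory chain and that can enter the nucleus in cell death without caspases, was second only to Cycs in level (chromosome X, 48474944 to 48513563, minus strand). Control mice were at 49.3, 55.6, 63.7, 69.2 and 65.4 FPKM, Ang II mice at 64.0, 53.8, 60.1, 65.1 and 46.5 FPKM and Ang II + QDG mice at 55.3, 55.5, 74.5, 66.5 and 54.9 FPKM. Its log2 differences of −0.07 and 0.08 (SE 0.12) were smaller than their SE, unlike those of Cycs.

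For 4 of the genes the sum hid a changing mix of transcripts within each group. Of 56 annotated transcripts of the 8 genes, 24 were listed in some file, 21 in every file and 18 passed the filter. The coding transcript Aifm1-201 (ENSMUST00000037349) was at 14.6 to 59.8 FPKM in Control mice, 17.4 to 40.3 in Ang II and 19.9 to 61.4 in QDG-treated mice. Aifm1-204 (ENSMUST00000143466), which keeps an intron, was at 2.12 to 30.5, 13.3 to 29.0 and 0.052 to 30.3 FPKM. The mouse with the highest Aifm1-201 in each group had little Aifm1-204 in Control (2.12 FPKM) and Ang II + QDG (0.988 FPKM) and the least of its group in Ang II (13.3 FPKM), and the sum over all Aifm1 transcripts spanned a narrower range (46.5 to 74.5 FPKM) than Aifm1-201. Aifm1-205 (ENSMUST00000156795), a short processed transcript, was at 3.40 to 18.0 FPKM over the 15 mice.

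Coding transcripts made up 55.8% to 100% of the Xiap sum in Control, 36.2% to 100% in Ang II and 43.2% to 100% in QDG-treated mice. Xiap-204 (ENSMUST00000115095) ranged from 0.364 to 8.98 FPKM and the processed transcript Xiap-207 (ENSMUST00000145065) from 0 to 6.45 FPKM over the 15 mice. Xiap-201 (ENSMUST00000026978) and Xiap-203 (ENSMUST00000115094) ranged from 0.293 to 6.24 and from 0.435 to 6.20 FPKM. In each group 1 mouse had Xiap-207 at 0, and that mouse had the highest Xiap-204 of its group.

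Within the sums, most of the Diablo signal, in all but 1 mouse, and most of the Htra2 signal lay in transcripts that are not annotated as coding. The sums hold transcripts listed in every file, and so leave out the coding transcripts Diablo-201, listed in Control files alone, and Htra2-201, listed in files of infused mice alone. For Diablo, Diablo-205 (ENSMUST00000125652) and Diablo-206 (ENSMUST00000139398) are both annotated as targets of nonsense-mediated decay and ranged from 1.20 to 5.89 and from 0 to 4.73 FPKM. Coding transcripts held 9.04% to 31.5% of the Diablo sum in Control mice, 19.1% to 52.6% in Ang II mice and 0.30% to 21.5% in Ang II + QDG mice. In 2 Ang II mice the coding transcript Diablo-203 (ENSMUST00000111587) was at 3.73 and 2.88 FPKM, while it was at most 0.374 FPKM in the other 13 mice, and Diablo-207 (ENSMUST00000145152) was at 0.011 to 1.42 FPKM. Counted from coding transcripts alone, the Diablo differences were 0.71 and −0.90 in the first and second comparison, and neither was called. With Diablo-201 added where it was listed, an alternative chosen after seeing the data, the coding sum had means of 1.60 ± 0.708 FPKM for Control mice and 2.21 ± 1.45 FPKM for Ang II mice (SD, n = 5 each), and the first difference was 0.23, between sums of unlike transcripts, since the Ang II sum takes in no Diablo-201.

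For Htra2, the coding transcript in every file, Htra2-208 (ENSMUST00000150217), ranged from 0 to 2.61 FPKM and held 0% to 37.8% of the sum. With Htra2-201 added where it was listed, coding transcripts held at most 50.1%, in Ang II + QDG replicate 2. The intron-keeping transcripts Htra2-207 (ENSMUST00000144058) and Htra2-209 (ENSMUST00000154829) ranged from 0 to 3.49 and from 0.421 to 2.23 FPKM. Htra2-205 (ENSMUST00000132099), annotated as a target of nonsense-mediated decay, was at 1.89 to 3.20 FPKM in 4 of 5 Control mice and at 0 in 6 of the 10 infused mice, whose highest value was 1.96 FPKM, and its log2 difference in Ang II + QDG vs. Control was −1.31 (SE 0.40). Htra2-204 (ENSMUST00000122955) was at 0 to 3.63 FPKM. None of these transcripts that passed the filter was called in any comparison, and Htra2-204 did not pass it.

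**Figure D4:**
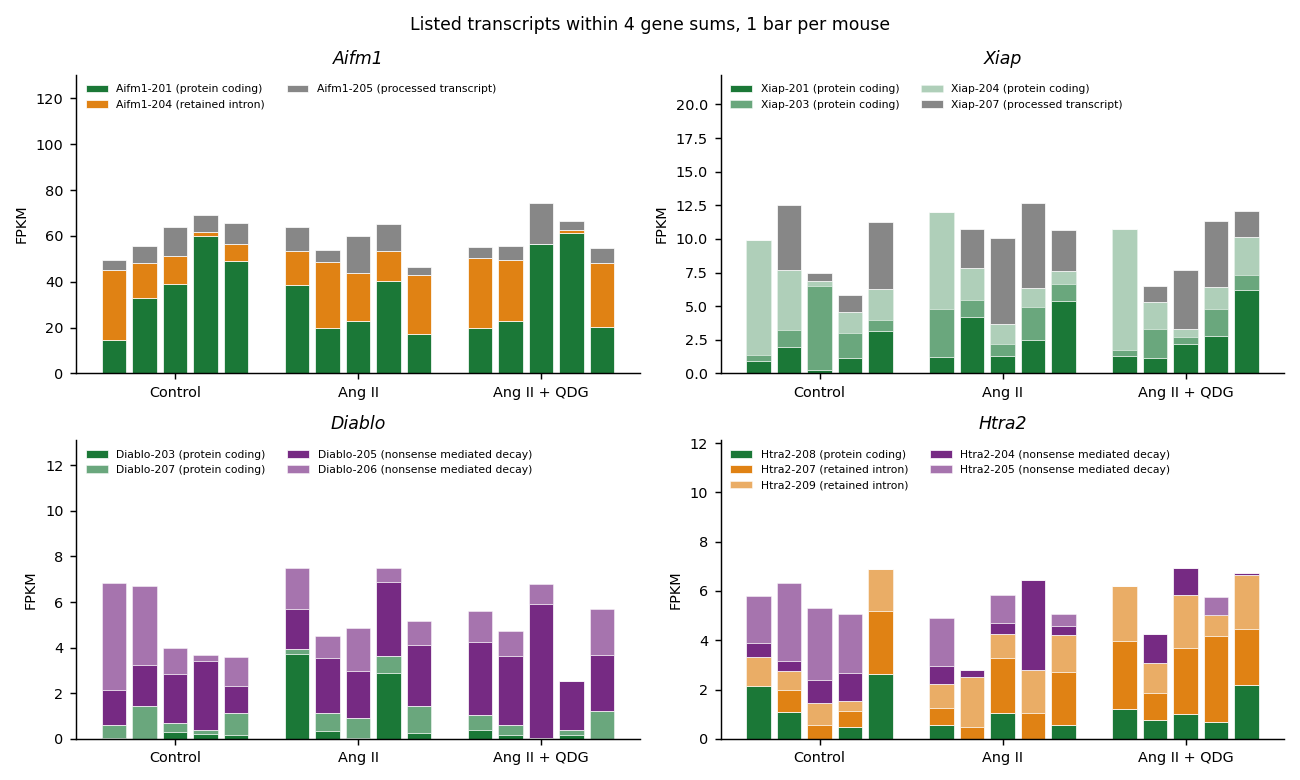
Stacked FPKM (vertical axes, linear from 0) of the transcripts within the Aifm1, Xiap, Diablo and Htra2 sums, 1 bar per mouse, with green for coding, orange for intron-keeping, purple for nonsense-mediated decay and grey for processed transcripts. Bars of similar height have different makeups within each group, as in the Aifm1 coding part, which runs from 14.6 to 59.8 FPKM among Control mice.

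Around the 8 genes, 101 other gene symbols of the pathway were listed, and 89 of them were tested. The list holds Sept4, which was tested, and Septin4, which was not, as the older and newer symbol of the same gene. In Ang II vs. Control 10 rose and 0 fell by limma, or 11.2% beside 5.94% of all genes, and at an unadjusted p under 0.05 there were 22 higher and 3 lower. Of the same genes 0 rose and 1 fell in Ang II + QDG vs. Ang II, or 1.124% beside 1.81%, and 3 were higher and 17 lower at an unadjusted p under 0.05. None was called by limma in Ang II + QDG vs. Control, where 14 had an unadjusted p under 0.05. No share of all genes at an unadjusted p under 0.05 is given, so nothing is read from the unadjusted counts. With equal medians the first count was 5, where 1.62% of all genes were called higher and 2.18% lower. The count was 3 to 12 when 1 mouse was left out at a time, with 3 reached without Ang II replicate 5. The lists were written with earlier results of these data known, so the counts and shares are given as a description.

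The respiratory partners of cytochrome c, the nuclear genes of complexes III and IV, supplied 6 of these 10. Of 22 tested, 6 rose in Ang II vs. Control and 16 were not called, with a median log2 difference of 0.13 beside 0.08 for all genes. Cyc1, the cytochrome of complex III that hands electrons to cytochrome c, had a mean of 189.2 ± 12.4 FPKM in Control and 236.5 ± 26.9 in Ang II mice (SD, n = 5 each), and every Ang II mouse (209.9 or more) lay above every Control mouse (208.3 or less). Its difference was 0.32 (SE 0.07, adjusted p = 0.0268 in limma). The Cyc1 call was kept in 11 of 15 fits that left out 1 mouse and in 5 of 10 alternatives that kept every mouse. From its most abundant transcript alone the difference was 0.03, and from coding transcripts alone it was 0.09, neither of them called.

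Among the other partners, Cox5b, a complex IV subunit, rose from 145.2 ± 9.58 to 206.4 ± 29.1 FPKM (0.50, adjusted p = 0.0256). Cox7a1, the heart and muscle form of a complex IV subunit, rose from 13.3 ± 1.06 to 20.04 ± 4.01 FPKM (0.54, adjusted p = 0.0222). The complex III subunit Uqcr11 rose from 174.3 ± 25.2 to 244.7 ± 26.5 FPKM (0.49, adjusted p = 0.0282), and Cox7b and Cox8a rose by 0.31 and 0.25. The number of partners called was 1 with equal medians or the most abundant transcript, 3 with coding transcripts alone, 4 higher and 1 lower with quantile normalization, and 0 when Control replicate 1 or Ang II replicate 5 was left out. In Ang II + QDG vs. Ang II none of the 22 was called in limma, and the median difference was −0.13 beside −0.02 for all genes. At an unadjusted p under 0.05, 8 were lower, with no share of all genes at that threshold given beside them. Cyc1 had −0.20 (adjusted p = 0.182 in limma) where Cycs had −0.51. From its most abundant transcript the Cyc1 difference was 0.15, and from coding transcripts alone it was 0.04, of the opposite sign to the sum. Whether Cycs differed from its partners in this comparison was not tested.

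**Figure D5:**
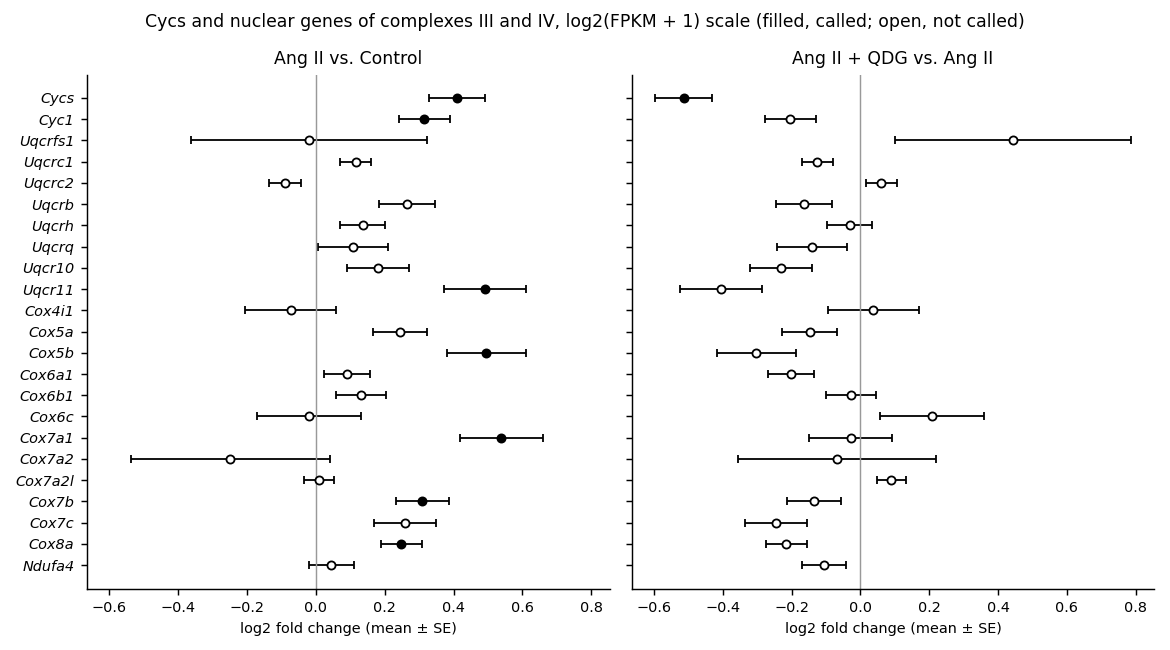
Difference on the log2(FPKM + 1) scale (horizontal axes, bars of 1 SE) of Cycs and 22 nuclear genes of complexes III and IV in Ang II vs. Control (left panel) and in the comparison of QDG-treated with Ang II mice (right panel). On the left 6 partners are filled (called), from 0.25 to 0.54, and on the right all 22 partners are open while Cycs is filled at −0.51. Cycs was chosen with these differences known, and whether it differed from its partners was not tested.

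Of 12 regulators of cytochrome c transcription, Esrra rose and 11 were not called in Ang II vs. Control. Esrra, a nuclear receptor that activates genes of mitochondrial respiration, was at 52.5 to 61.4 FPKM in Control mice, 72.3 to 96.8 in Ang II and 61.5 to 70.4 in QDG-treated mice. Ang II mice lay above all others, as for Cycs. The difference was 0.50 (SE 0.08, adjusted p = 0.00631 in limma) in Ang II vs. Control and −0.29 (adjusted p = 0.0709) in Ang II + QDG vs. Ang II, where it was not called. The call in Ang II vs. Control was kept in 15 of 15 fits that left out 1 mouse and lost with the most abundant transcript alone (0.45, SE 0.13, adjusted p = 0.0870).

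Among 11 genes of proteins that executioner caspases cut, 2 rose in Ang II vs. Control and 9 were not called. Lmnb2, lamin B2 of the nuclear lamina, was at 2.68 to 3.46 FPKM in Control mice, 4.13 to 6.54 in Ang II and 2.78 to 4.19 in QDG-treated mice. It rose by 0.66 (SE 0.11, adjusted p = 0.00742 in limma) in Ang II vs. Control and fell by 0.49 (adjusted p = 0.0402) in Ang II + QDG vs. Ang II, the 1 other pathway gene called there. The first call was lost with the most abundant transcript alone (0.51, SE 0.28, adjusted p = 0.364). The second was lost in 10 of 15 fits that left out 1 mouse, where the adjusted p reached 0.0889, and in 4 of 10 alternatives that kept every mouse, quantile normalization among them, with differences of −0.94 to −0.48 and an adjusted p of up to 0.120. Acin1, a nuclear protein of chromatin condensation and splicing, was at 5.66 to 7.21 FPKM in Control and 9.01 to 16.8 in Ang II mice, a difference of 0.87 (SE 0.18, adjusted p = 0.0154). From coding transcripts or from the most abundant transcript alone Acin1 was not called, at 0.58 (adjusted p = 0.176) and 0.14 (adjusted p = 0.912).

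The remaining lists held 1 called gene. Of 12 apoptosome modulators, Akt1, a kinase that promotes survival, rose by 0.27 (adjusted p = 0.0494 in limma) in Ang II vs. Control, from 26.8 ± 2.84 to 32.6 ± 2.62 FPKM, and this call was kept in 2 of 15 fits that left out 1 mouse and in 1 of 10 alternatives that kept every mouse. By limma no gene was called among 2 other caspases, 3 other inhibitors of apoptosis, 8 other released factors and antagonists or 19 genes of the outer membrane gate. In Ang II vs. Control 0, 0, 1 and 5 of these had an unadjusted p under 0.05, compared with 0, 0, 2 and 3 in the second comparison. These counts too have no share of all genes beside them. The gene of smallest unadjusted p over the first and second comparison was named from each of these lists. These were Chchd4, which imports intermembrane space proteins with Aifm1 (0.30, adjusted p = 0.0509), Bcl2l11, a BH3-only activator of membrane opening (0.51, adjusted p = 0.0534), Casp8, a caspase that death receptors activate (0.17, adjusted p = 0.528), and Birc3, a relative of Xiap (0.76, adjusted p = 0.378). Chchd4 had means of 10.4 ± 0.755 FPKM in Control mice, 13.0 ± 1.49 in Ang II and 10.1 ± 0.870 in QDG-treated mice, and its difference in Ang II + QDG vs. Ang II was −0.33 (adjusted p = 0.0617).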

How the data were processed

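RNA-seq of rRNA-depleted kidney RNA was read from 1 deposited file per mouse. The authors deposited 1 value per transcript, for Ensembl and for assembled transcripts, and no source used here states the unit. The deposited values, which the authors made from their aligned reads per transcript, were taken as FPKM because value times transcript length was a whole multiple (within 0.1) of 1 constant per mouse for 98.7% to 98.8% of values under 200 reads. The submitters' processing notes name mm10 and limma, while the aligner, assembler and annotation are not given in the sources used here. The study's methods add a poly(A) selection to the rRNA depletion.

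Of 40054 transcripts in all 15 files, 28871 were annotated in GENCODE M21 (GRCm38) and 11141 were assembled. Annotated FPKM were summed per gene, and log2(FPKM + 1) was fitted with limma 3.58.1 (R 4.3.3, trend) in 1 model of 15 mice and 3 groups with 12 residual degrees of freedom. Genes needed at least 1 FPKM in at least 5 mice. Calls used Benjamini-Hochberg adjusted p under 0.05, and the code was tested on simulated data. Replicates were separate mice, numbered within groups only to name them. Near copies were searched with blastn 2.17.0.

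The members and gene lists were chosen with earlier results of these data known. All members were named, with transcripts of at least 10% of a group mean, and Cycs-201 and the transcripts that only some files list besides, chosen after their values were seen. From each other list up to 4 called genes by smallest adjusted p were named, or with none called the gene of smallest unadjusted p, together with Cyc1 and the 5 genes most like Cycs. Of the genes listed for naming or counting, 2 are not reported here. Cox7b and Cox8a were named after their values were seen. Alternatives changed the pseudocount, filter, scaling, transcripts summed, samples in the fit and variance prior, or left out each mouse. The precision is limited by 5 mice per group, and the implied fragments cover counting error only.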

Additional observations from a re-analysis of the deposited data

Results flagged for a closer look

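Of 24 combinations of a member gene and a group, 2 had a mouse far from the other 4 by Dixon's criterion, and chance alone gives about 1 in 20. Apaf1 was at 0.572 FPKM in Ang II + QDG replicate 4, with the others at 1.00 to 1.13 FPKM. Casp6 was at 2.43 FPKM in Control replicate 5, with the others at 10.3 to 12.3 FPKM, and it is 1 of the 6 mice below the gap in the Casp6 values.

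The files of Control mice and those of infused mice list different sets of transcripts, so 3 member transcripts could not be compared between Control and infused mice and entered no sum. Casp6-203 (ENSMUST00000152622), which keeps an intron, was listed in the 5 Control files alone, at up to 1.45 FPKM. The coding transcript Diablo-201 (ENSMUST00000031385) was also listed there alone, at up to 1.32 FPKM. The full-length coding transcript Htra2-201 (ENSMUST00000089645) was listed in the 10 files of infused mice, at up to 2.70 FPKM in an Ang II + QDG mouse. Absence from a file is not shown to be a value of 0.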

How the results depend on the processing

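Over all alternatives that kept every mouse, 317 values stayed within the main range or side of the threshold, 43 moved and 0 called values changed sign. Without 1 mouse at a time, the Cycs log2 difference was 0.34 to 0.46 and −0.56 to −0.48 in the first and second comparison, given as a description. With median scaling it was 0.32 in Ang II vs. Control, which left 0 members called. No paired analysis was possible because the labels give no replicate numbers, and those used here only name the mice. The causes of these moves were not tested, except that fits of the groups compared use fewer mice.

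In Ang II vs. Control, the 735 genes called became 470 with median scaling, 408 with coding transcripts, 353 with the most abundant transcript and 456 with the compared groups alone. The 10 other pathway genes called became 5, 5 and 1 under the first 3 of these. The 1 member transcript called became 0 with quantile normalization, median scaling, the compared groups alone or no trend. In Ang II + QDG vs. Ang II, the 224 genes called became 58 with the compared groups alone. The 1 other pathway gene called became 0 with median scaling, the most abundant transcript or the compared groups alone, and the 1 member transcript called became 0 with quantile normalization or no trend. In Ang II + QDG vs. Control, the 16 genes called became 80 with absent transcripts at 0, 6 with coding transcripts, 6 with the most abundant transcript and 4 with the compared groups alone, and the 0 other pathway genes became 2 with median scaling, nuclear rescaling or absent transcripts at 0.

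With coding transcripts, the log2 difference in Ang II vs. Control was 0.71 for Diablo, −0.56 for Htra2 and −0.42 for Aifm1. In Ang II + QDG vs. Ang II it was −0.90 for Diablo and 0.61 for Htra2. With the most abundant transcript it was −0.17 for Xiap, 0.32 for Htra2 and −0.42 for Aifm1 in Ang II vs. Control, 0.30, 0.10 and 0.61 for Diablo, Xiap and Htra2 in Ang II + QDG vs. Ang II, and 0.54 for Diablo and 0.92 for Htra2 in Ang II + QDG vs. Control. With coding transcripts that only some files list added where listed, an alternative chosen after seeing the data that counts them as 0 in the other files, it was 0.23 for Diablo and −0.39 for Htra2 in the first comparison, −0.90 and 0.88 in the second and −0.67 and 0.49 in the third. A pseudocount of 0.1 gave Apaf1 0.42 in Ang II + QDG vs. Ang II.

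Without 1 mouse at a time, genes called ranged from 338 (without Control replicate 1) to 797 in Ang II vs. Control, from 53 (without Ang II replicate 2) to 250 in Ang II + QDG vs. Ang II and from 0 (without Control replicate 4) to 110 (without Control replicate 2) in Ang II + QDG vs. Control. Other pathway genes called ranged from 3 to 12, 0 to 3 and 0 to 2 in the same order, and member transcripts from 0 to 2 and 0 to 1 in the first and second comparison.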
